A study of Mus musculus with 9 samples.

Results

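The genes examined here encode the subunits of the mitochondrial respiratory chain and of the ATP synthase, measured by RNA sequencing in mouse splenic T cells after hematopoietic stem cell transplantation. Members were taken by symbol among protein-coding genes, as those beginning with Ndufa, Ndufb, Ndufc, Ndufs, Ndufv (without the Ndufaf assembly factors), Uqcr, Cox4 to Cox8, Atp5, Sdha to Sdhd, mt-Nd, mt-Co, mt-Cytb or mt-Atp. They were 96 of the 29229 genes in the count table, 83 encoded in the nucleus and 13 in mitochondrial DNA. No measured value entered the symbol rule, although the members were chosen with earlier results of these data known. The prefixes also take in Cox7a2l, a factor that joins complexes III and IV, Ndufab1, the acyl carrier protein that is part of complex I, and Atp5s, a factor associated with the ATP synthase. Ndufa4 and its relative Ndufa4l2 were counted with complex IV, where the Ndufa4 protein resides.

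The libraries fell into 3 groups of 3. Allogeneic recipients were CByJ.SJL(B6)-Ptprca/J mice (H-2d, CD45.1) given 8 Gy, 5000000 marrow cells depleted of T cells and 1000000 splenic T cells, all from C57BL/6 (CD45.2) donors. Syngeneic recipients were B6.SJL-Ptprca Pepcb/BoyJ mice (H-2b, CD45.1) given 9.5 Gy, the same 5000000 donor marrow cells and 8500000 donor splenic T cells. Naive libraries came from C57BL/6 mice that had no transplant. Female mice aged 8 to 12 weeks were used throughout, and recipients were studied on day 7. Live CD3+ CD45.2+ spleen cells were sorted, and each transplant library pooled 2 to 4 recipients. Host strain, irradiation and T cell dose differ together between the transplant groups, so their parts cannot be told apart, and progeny of the donor marrow also carry CD45.2. The strain tag names the syngeneic recipient strain for all 9 libraries, against the protocols, and was not used.

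The respiratory chain passes electrons from NADH (complex I) and succinate (complex II) through complex III and cytochrome c to oxygen at complex IV, and complex V uses the resulting proton gradient to make ATP. Complex II is encoded wholly in the nucleus. The other complexes combine nuclear subunits, made in the cytosol and imported, with a few hydrophobic subunits that mitochondria transcribe and translate themselves. T cells that are activated are known to enlarge their mitochondria and to change the balance of glycolysis and respiration.

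Libraries held 103953932 to 176678189 counts, and levels are given as CPM, counts per 1000000 counts of a library's total, so that 1 CPM stood for 104 to 177 reads. A ribosomal RNA locus annotated as Gm26917 and Gm42418 took 7.87 to 22.4% of a library, least in allogeneic libraries 2 and 3, and lowers every CPM accordingly. All 14 T cell markers were detected, with summed levels of 5466 to 5897 CPM in allogeneic, 4315 to 5277 CPM in syngeneic and 6061 to 6647 CPM in naive libraries. Markers of other cells were present as well. Of 14 erythroid markers 13 were in the table, and they summed to 24.9 to 73.4 CPM in allogeneic, 2395 to 6334 CPM in syngeneic and 11.5 to 12.8 CPM in naive libraries. The 10 macrophage and monocyte markers summed to 88.4 to 178 CPM in allogeneic, 67.1 to 246 CPM in syngeneic and 7.73 to 8.97 CPM in naive libraries. The 8 neutrophil markers summed to 602 to 1089 CPM in allogeneic, 405 to 1359 CPM in syngeneic and 1.55 to 5.06 CPM in naive libraries, and the 8 B cell markers to 944 to 1471 CPM, 468 to 870.0 CPM and 457 to 485 CPM in the same groups. Of these B cell markers, 1 was called higher and 5 lower in allogeneic than in syngeneic libraries, although their sum was higher. The 4 NK cell markers summed to 31.0 to 39.2 CPM in allogeneic, 9.80 to 16.5 CPM in syngeneic and 9.50 to 14.0 CPM in naive libraries, and the 5 platelet markers to 2.14 to 2.43 CPM, 3.98 to 7.69 CPM and 1.93 to 3.32 CPM in the same groups. Of the NK cell markers 2 were called higher and 2 lower in allogeneic than in syngeneic libraries. Of the macrophage and monocyte markers 2 were called higher and 8 lower in that comparison. The part of these cells in the results on respiratory chain genes was not tested. In these bulk libraries more or fewer cells of a type and more or less RNA per cell cannot be told apart.

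Nuclear respiratory chain genes were mostly higher in allogeneic T cells, while mitochondrially encoded ones were lower or not called. Of 96 members, 92 passed the filter on low counts, 80 of them nuclear and 12 mitochondrial. Against syngeneic T cells, 49 nuclear members were higher and 2 lower in allogeneic T cells (edgeR, adjusted p under 0.05), where 24.3% of the 19609 genes tested were called higher and 20.7% lower. Against naive T cells, 65 were higher and 1 lower in allogeneic T cells, where 31.8% of all genes were called higher and 25.9% lower. Between the control groups, 26 were higher and 1 lower in syngeneic than in naive T cells, with 22.4% of all genes called higher and 19.5% lower. The share of nuclear members called higher in syngeneic over naive T cells was thus nearer to the share over all genes than in the allogeneic comparisons.

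Differences of nuclear members were moderate in size. Their median log2 fold change was 0.40 for allogeneic over syngeneic, 0.64 for allogeneic over naive and 0.25 for syngeneic over naive T cells, beside medians over all genes of -0.02, -0.01 and 0.01. The comparisons share libraries, so they are not independent of each other. In 59 of 83 nuclear members the group means in CPM were ordered allogeneic, syngeneic, naive from high to low. In all, 47 were called higher in allogeneic T cells against both other groups, and 15 were called higher in all 3 comparisons. The share of all genes with this order of means or these joint calls was not computed. No excess over all genes is therefore read from these counts. The count of 49 rests partly on single libraries, and was 30 without allogeneic library 1 and 26 without syngeneic library 2. Over all genes, 4471 of 20186 and 3825 of 20064 tested were called higher in those runs. The count of 26 for syngeneic over naive was 17 without syngeneic library 1, 16 without syngeneic library 3, 14 without naive library 1 and 13 without naive library 2. In these runs 4490 of 20211, 3668 of 20111, 3697 of 20165 and 4033 of 20159 genes tested were called higher. The member counts for syngeneic over naive were there near or below the share over all genes.

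**Figure D1:**
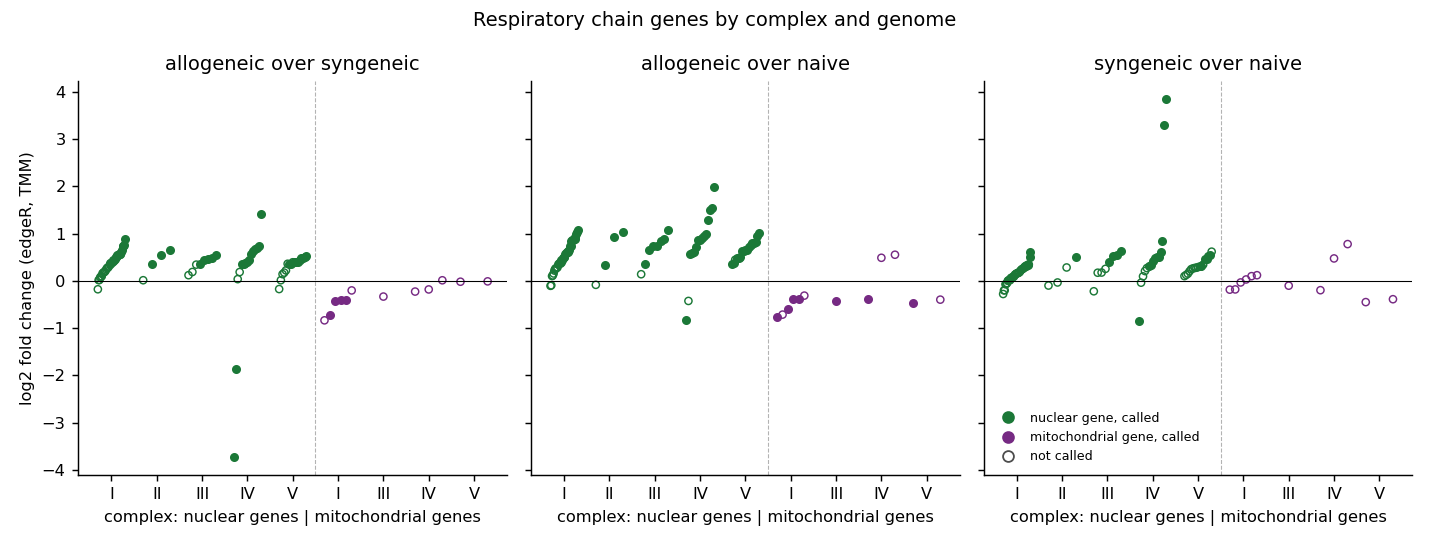
Log2 fold change (vertical axis, edgeR with TMM scaling) of each of the 92 tested genes, grouped by complex and by the genome that encodes it, for the 3 comparisons. Filled points were called at an adjusted p under 0.05 and open points were not; nuclear genes lie mostly above 0 in the allogeneic panels, and all called mitochondrial genes lie below 0.

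Summed over genes, the nuclear and mitochondrial protein-coding members differed between groups in opposite directions. The 83 nuclear members took 0.791, 0.696 and 0.706% of all counts in allogeneic libraries, against 0.580, 0.535 and 0.586% in syngeneic and 0.494, 0.481 and 0.544% in naive libraries. In this share of all counts the 3 allogeneic libraries lay above the other 6, while syngeneic and naive libraries overlapped. The ribosomal RNA locus took 17.2, 9.06 and 7.87% in allogeneic, 19.4 to 22.4% in syngeneic and 15.8 to 18.8% in naive libraries. Gaps and overlaps between groups therefore differ outside the locus. There the nuclear share of allogeneic libraries 2 and 3 exceeds that of syngeneic library 1 by little. Syngeneic libraries all lie above naive libraries there, without overlap. The 13 mitochondrial members took 0.269, 0.351 and 0.367% in allogeneic libraries, against 0.388, 0.470 and 0.371% in syngeneic and 0.457, 0.454 and 0.442% in naive libraries. Every allogeneic library was below every other library in this share, by little in the case of allogeneic library 3 and syngeneic library 3. Of the 13, mt-Nd3, mt-Nd4l, mt-Co2 and mt-Co3 had at most 32 reads in a library, so the sum holds almost nothing of them. Reads of 7 of the 13 may be split with near-identical nuclear copies. The sum is thus not a level of the whole mitochondrial set. The ribosomal RNA locus weighs on these shares: outside it, the mitochondrial share was 0.370 ± 0.0396% in allogeneic, 0.518 ± 0.0689% in syngeneic and 0.548 ± 0.0204% in naive libraries (mean ± SD, n = 3 each). The mean share of all counts differed by -0.081 percentage points between allogeneic and syngeneic libraries, and by -0.050 without allogeneic library 1 or syngeneic library 2. The mitochondrial ribosomal RNAs mt-Rnr1 and mt-Rnr2, which are no members, summed to 162, 85.3 and 153 CPM in allogeneic, 52.6, 54.6 and 97.1 CPM in syngeneic and 113, 43.6 and 73.0 CPM in naive libraries. Their mean was higher in allogeneic libraries, and the groups overlapped. The libraries were depleted of ribosomal RNA, so these counts are what was left after depletion and give no direction for these RNAs in the cells.

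The ratio of the sums within a library depends on neither depth nor scaling. The log2 ratio of mitochondrial to nuclear counts was -1.56, -0.99 and -0.94 in allogeneic libraries, against -0.58, -0.19 and -0.66 in syngeneic and -0.11, -0.08 and -0.30 in naive libraries. Allogeneic libraries were lowest without overlap, and syngeneic and naive libraries overlapped. A ratio of sums follows the most abundant genes: the mean log2 CPM of mitochondrial minus that of nuclear genes, which weights genes equally, was -1.63, -0.93 and -1.00 in allogeneic, -0.58, -0.23 and -1.03 in syngeneic and -0.18, -0.30 and -0.31 in naive libraries. There allogeneic and syngeneic libraries overlapped through syngeneic library 3. This mean includes mt-Nd4l, mt-Co2 and mt-Co3, which had only 3, 12 and 3 reads in syngeneic library 3. A mean without these genes was not computed. On average the log2 ratio of sums was 0.69 lower in allogeneic than in syngeneic libraries (-1.16 and -0.48) and 1.00 lower than in naive libraries (-0.16). Allogeneic library 1 had the lowest ratio, and without it the differences were -0.49 and -0.80. A sum over chosen genes was not tested for significance, and the limits given above for the mitochondrial sum hold for these ratios too.

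**Figure D2:**
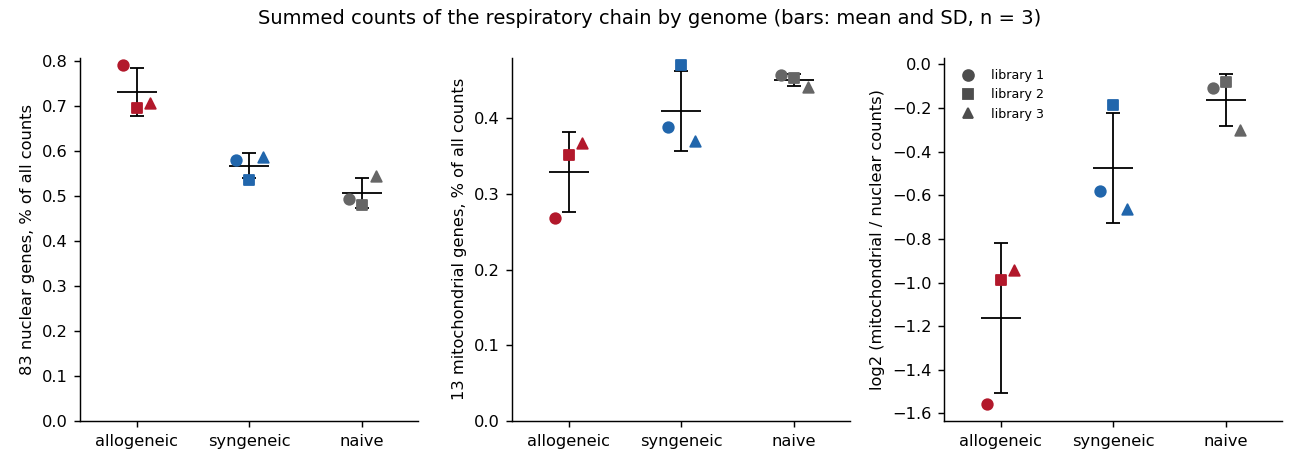
Counts summed over the 83 nuclear genes and over the 13 mitochondrial genes, each as a percentage of all counts of a library, and the log2 ratio of the sums, per library (points) with mean and SD (bars, n = 3). Allogeneic libraries are highest for nuclear genes (0.696 to 0.791%), lowest for mitochondrial genes (0.269 to 0.367%) and lowest for the ratio.

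Complex I, the NADH dehydrogenase, has 36 nuclear members, and all were tested. In allogeneic T cells 20 were higher than in syngeneic and 26 higher than in naive T cells, and 5 were higher in syngeneic than in naive T cells; none was lower in any comparison, whether by edgeR, DESeq2 or limma-voom, adjusted or not. Among its 7 nuclear core subunits, which carry the flavin and the iron-sulfur clusters or the quinone site, 3, 5 and 3 were higher in these comparisons. Among its 29 accessory subunits 17, 21 and 2 were higher. Over all genes 24.3, 31.8 and 22.4% were called higher and 20.7, 25.9 and 19.5% lower. For syngeneic over naive T cells, 5 of 36 members and 2 of 29 accessory subunits were below the share of 22.4%. The summed level of complex I genes was 1871 ± 113 CPM in allogeneic, 1412 ± 72.9 CPM in syngeneic and 1326 ± 85.8 CPM in naive libraries (SD, n = 3 each).

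Ndufb7, an accessory subunit on the side of the intermembrane space, had the largest difference of complex I between the transplant groups. Its level was 94.7, 84.6 and 80.8 CPM in allogeneic libraries, against 47.0, 44.2 and 52.6 CPM in syngeneic and 43.0, 41.5 and 47.1 CPM in naive libraries. The allogeneic libraries stood apart from both other groups, which overlapped. Its difference in log2 terms was 0.88 ± 0.12 (SE) over syngeneic T cells (adjusted p = 0.00015 by edgeR) and 1.04 ± 0.12 over naive T cells (adjusted p = 2.18e-05).

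Ndufs8, a core subunit that holds iron-sulfur clusters, had the largest difference of complex I from naive T cells, with 78.0, 67.3 and 65.2 CPM in allogeneic, 43.5, 37.7 and 44.6 CPM in syngeneic and 34.02, 32.6 and 38.1 CPM in naive libraries. The allogeneic libraries did not overlap with the others. Its log2 fold change was 0.77 ± 0.13 over syngeneic T cells (adjusted p = 0.000832 by edgeR) and 1.07 ± 0.14 over naive T cells (adjusted p = 4.25e-05). Core subunits did not all differ alike: Ndufs1, which carries several iron-sulfur clusters, was at 74.8 ± 4.44 CPM in allogeneic, 70.7 ± 4.56 CPM in syngeneic and 59.4 ± 1.45 CPM in naive libraries (SD, n = 3 each). It was called in both comparisons against naive T cells, at a log2 fold change of 0.39 ± 0.08 for allogeneic (adjusted p = 0.0011 by edgeR) and 0.29 ± 0.08 for syngeneic T cells (adjusted p = 0.00998, and 0.0536 without naive library 1). Ndufs3 and Ndufs7, also core subunits, were called in no comparison.

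Accessory subunits covered the same range. Ndufa3 had the smallest called difference of complex I in allogeneic T cells, at a log2 fold change of 0.36 ± 0.11 over syngeneic (adjusted p = 0.0255 by edgeR) and 0.36 ± 0.11 over naive T cells (adjusted p = 0.019). Its call over syngeneic T cells was lost without allogeneic library 1 or 3 or syngeneic library 2 or 3 (adjusted p of 0.0818, 0.068, 0.123 and 0.0801), and its call over naive T cells without allogeneic library 1 or 3 or naive library 2 (0.0673, 0.071 and 0.0841). Ndufa12 had the largest difference of complex I between syngeneic and naive T cells, with 22.6, 19.0 and 21.6 CPM in syngeneic and 14.0, 13.7 and 14.7 CPM in naive libraries. Those groups did not overlap, and the log2 fold change was 0.62 ± 0.14 (adjusted p = 0.00389 by edgeR). A pseudogene, Gm15920, matches 402 bases of Ndufa12 at 99.5% identity, so reads may be split between them. Ndufab1, whose protein also serves mitochondrial fatty acid synthesis, was at 13.3 ± 2.33 CPM in allogeneic, 15.2 ± 0.384 CPM in syngeneic and 14.7 ± 1.07 CPM in naive libraries and was called in no comparison.

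Complex II, succinate dehydrogenase, links the chain to the tricarboxylic acid cycle. Its flavin-bearing subunit Sdha differed from the other 3. Sdha was at 176, 182 and 203 CPM in allogeneic, 189.8, 183 and 186 CPM in syngeneic and 202, 202 and 210.2 CPM in naive libraries, and the allogeneic libraries overlapped with both other groups. It was called in no comparison (adjusted p = 0.896 by edgeR for allogeneic over syngeneic, 0.401 for allogeneic over naive and 0.374 for syngeneic over naive T cells). The log2 fold changes were 0.01, -0.08 and -0.10, each with a SE of 0.08, and a missing call does not show equal levels.

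Sdhb, the iron-sulfur subunit, was at 134, 119 and 112 CPM in allogeneic, 81.3, 72.8 and 83.04 CPM in syngeneic and 66.0, 63.3 and 70.5 CPM in naive libraries, with no overlap between any of the groups. It was higher in allogeneic than in syngeneic T cells by a log2 fold change of 0.65 ± 0.12 (adjusted p = 0.00136 by edgeR) and than in naive T cells by 0.93 ± 0.12 (adjusted p = 5.89e-05). Within a library the ratio of Sdhb to Sdha counts was 0.764, 0.656 and 0.555 in allogeneic, 0.428, 0.398 and 0.446 in syngeneic and 0.327, 0.313 and 0.336 in naive libraries. The ratio therefore ordered the groups without overlap, independently of scaling.

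Sdhd, a membrane anchor of complex II, was at 82.2, 67.6 and 68.1 CPM in allogeneic, 50.4, 49.8 and 52.0 CPM in syngeneic and 36.1, 35.0 and 39.6 CPM in naive libraries. It was the complex II gene called in all 3 comparisons, with log2 fold changes of 0.54 ± 0.12 for allogeneic over syngeneic (adjusted p = 0.00447 by edgeR), 1.04 ± 0.13 for allogeneic over naive (adjusted p = 2.92e-05) and 0.50 ± 0.12 for syngeneic over naive T cells (adjusted p = 0.00749). Sdhc, the other anchor, was at 68.0 ± 2.51 CPM in allogeneic, 53.4 ± 2.64 CPM in syngeneic and 56.1 ± 2.65 CPM in naive libraries (SD, n = 3 each). It was called higher in allogeneic over syngeneic (adjusted p = 0.013 by edgeR, and 0.0639 without syngeneic library 2) and over naive T cells (adjusted p = 0.0153, and 0.0548 without allogeneic library 1 or 0.0697 without naive library 2).

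Complex III, cytochrome c reductase, has 8 nuclear members. In allogeneic T cells 5 were higher than in syngeneic and 7 higher than in naive T cells, and 4 were higher in syngeneic than in naive T cells. None was lower by edgeR, DESeq2 or limma-voom, adjusted or not. Over all genes 24.3, 31.8 and 22.4% were called higher in these comparisons. Uqcrfs1, the Rieske iron-sulfur subunit that passes electrons onward, was at 106.4 ± 12.9 CPM in allogeneic, 76.8 ± 2.87 CPM in syngeneic and 66.1 ± 2.48 CPM in naive libraries (SD, n = 3 each). Its log2 fold change was 0.49 ± 0.12 over syngeneic (adjusted p = 0.00777 by edgeR) and 0.75 ± 0.12 over naive T cells (adjusted p = 0.000344).

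Uqcr10, a small subunit of complex III, had the largest called difference of the complex in both allogeneic comparisons, with 67.0, 47.7 and 46.9 CPM in allogeneic, 39.7, 35.4 and 37.4 CPM in syngeneic and 27.0, 24.3 and 28.8 CPM in naive libraries. Allogeneic library 1 was the highest of its group. The log2 fold change was 1.08 ± 0.18 over naive T cells (adjusted p = 0.00029 by edgeR), and 0.55 ± 0.17 over syngeneic T cells (adjusted p = 0.0239), where it was 0.29 without allogeneic library 1 (adjusted p = 0.0703). That call was also lost without syngeneic library 2 or 3 (adjusted p = 0.0906 and 0.0697). Uqcrb differed otherwise, with 22.7, 19.3 and 25.0 CPM in allogeneic, 20.2, 22.1 and 19.9 CPM in syngeneic and 13.6, 12.98 and 14.7 CPM in naive libraries. The transplant groups overlapped and both exceeded naive libraries, at a log2 fold change of 0.63 ± 0.12 for syngeneic over naive T cells (adjusted p = 0.00167 by edgeR). The structural core subunits Uqcrc1 and Uqcrc2 were at 190.3 ± 5.87 and 119.9 ± 12.1 CPM in allogeneic, 139 ± 9.88 and 107 ± 1.70 CPM in syngeneic and 126 ± 6.13 and 97.2 ± 4.82 CPM in naive libraries. Uqcrc1 was called higher in allogeneic T cells against both groups. Uqcrc2 had the smallest called difference of complex III over naive T cells (log2 0.36 ± 0.12, edgeR, adjusted p = 0.02), lost without allogeneic library 1 or naive library 1 or 2 (adjusted p of 0.0633, 0.0568 and 0.0793), the log2 fold change being 0.22 without allogeneic library 1.

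Uqcrh, the hinge subunit that touches cytochrome c1, was at 111, 96.4 and 99.3 CPM in allogeneic, 86.8, 76.9 and 78.0 CPM in syngeneic and 92.1, 88.2 and 109 CPM in naive libraries. Allogeneic and naive libraries overlapped, and it was called over syngeneic T cells alone (log2 0.36 ± 0.13, edgeR, adjusted p = 0.0447). That call was lost without allogeneic library 1 or 3, syngeneic library 2 or 3 or naive library 1, with adjusted p of 0.0597 to 0.162, and with DESeq2 factors (0.0514) or TMM computed without mitochondrial and ribosomal RNA locus counts (0.0562). Its log2 fold change was 0.23 without allogeneic library 1. Uqcrq, a small subunit, was at 58.6 ± 7.84 CPM in allogeneic, 43.9 ± 3.93 CPM in syngeneic and 33.9 ± 1.96 CPM in naive libraries (SD, n = 3 each). It was called in all 3 comparisons, the smallest being syngeneic over naive T cells (log2 0.41 ± 0.14, edgeR, adjusted p = 0.035), which was lost without syngeneic library 1 or 3 or naive library 1 or 2 (adjusted p of 0.0854 to 0.113).

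Complex IV, cytochrome c oxidase, has 18 nuclear members, of which 15 were tested. In allogeneic T cells 11 were higher and 2 lower than in syngeneic, and 13 higher and 1 lower than in naive T cells. Between the control groups, 10 were higher and 1 lower in syngeneic than in naive T cells. Over all genes 24.3, 31.8 and 22.4% were called higher and 20.7, 25.9 and 19.5% lower in these comparisons. Cox8b had no count in any library, and Cox4i2, the hypoxia and lung isoform of subunit 4, had at most 28 reads in a library and was not tested. Ndufa4l2 had at most 8 reads and was not tested either.

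Cox5a and Cox5b, nuclear subunits of the matrix side of complex IV, had the largest differences from naive T cells among its ubiquitous subunits. Cox5a was at 104, 87.8 and 95.3 CPM in allogeneic, 62.0, 57.3 and 62.0 CPM in syngeneic and 32.7, 33.7 and 36.8 CPM in naive libraries. These groups did not overlap, and the log2 fold change was 0.68 ± 0.11 for allogeneic over syngeneic (adjusted p = 0.000618 by edgeR), 1.53 ± 0.12 for allogeneic over naive (adjusted p = 6.84e-07) and 0.85 ± 0.12 for syngeneic over naive T cells (adjusted p = 0.000136). Cox5b was at 101, 91.6 and 89.7 CPM in allogeneic, 61.2, 52.3 and 63.8 CPM in syngeneic and 39.7, 35.3 and 44.4 CPM in naive libraries. It was 2.46-fold higher in allogeneic than in naive T cells (log2 1.30 ± 0.14, edgeR, adjusted p = 9.25e-06). Cox5a and Cox5b were named after their values were seen.

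Cox4i1, the usual subunit 4, was at 315, 266 and 257 CPM in allogeneic, 189, 169.7 and 191 CPM in syngeneic and 184, 181 and 213 CPM in naive libraries. It was higher in allogeneic T cells than in both others, and syngeneic and naive libraries overlapped. The log2 fold change was 0.63 ± 0.14 over syngeneic (adjusted p = 0.00316 by edgeR) and 0.59 ± 0.14 over naive T cells (adjusted p = 0.003). Its exons share 154 bases with Emc8 on the other strand. The members whose log2 CPM followed Cox4i1 most closely over the 9 libraries were Ndufb5, Ndufa11 and Ndufb11, with Pearson r of 0.987, 0.982 and 0.970; the libraries share group differences and depth, and r is given as a description.

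The common forms Cox6a1, Cox7b and Cox8a, small nuclear subunits of complex IV, were called higher in all 3 comparisons. Cox8a was at 180.4 ± 9.01 CPM in allogeneic, 123 ± 11.4 CPM in syngeneic and 99.8 ± 5.70 CPM in naive libraries, Cox6a1 at 138 ± 9.96 CPM in allogeneic, 105.6 ± 8.75 CPM in syngeneic and 87.0 ± 5.37 CPM in naive libraries, and Cox7b at 89.2 ± 9.28 CPM in allogeneic, 70.1 ± 4.19 CPM in syngeneic and 51.0 ± 4.199 CPM in naive libraries (SD, n = 3 each). Over syngeneic T cells the Cox6a1 call (adjusted p = 0.015 by edgeR) was lost without syngeneic library 2 (adjusted p = 0.0689). Between syngeneic and naive T cells the calls of Cox8a (adjusted p = 0.036 by edgeR) and Cox6a1 (adjusted p = 0.0476) were lost without syngeneic library 1 or 3, naive library 1 or 2, or allogeneic library 3, and that of Cox6a1 also without allogeneic library 2, with adjusted p up to 0.126 for Cox8a and 0.161 for Cox6a1. The Cox6a1 call was also lost with DESeq2 (adjusted p = 0.0546), with no filter on low counts (0.0649) and with TMM computed without mitochondrial and ribosomal RNA locus counts (0.0545). Ndufa4 was at 53.8 ± 6.05 CPM in allogeneic, 48.1 ± 0.837 CPM in syngeneic and 37.0 ± 3.84 CPM in naive libraries. It was called higher in both transplant groups against naive T cells (adjusted p = 0.00216 by edgeR for allogeneic and 0.0249 for syngeneic, the second lost without syngeneic library 1 or 3 or naive library 1 or 2), and not between them (adjusted p = 0.261).

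Several complex IV subunits have rare tissue isoforms beside the common form, and differences between an isoform and its partner were not tested. Cox6b2, known as the testis isoform of subunit 6b (chr7:4751792-4753094 of GRCm38), was at 1.17, 0.662 and 0.789 CPM in allogeneic, 1.55, 3.78 and 4.56 CPM in syngeneic and 0.239, 0.159 and 0.288 CPM in naive libraries. The groups did not overlap, and the lowest syngeneic library was near the highest allogeneic one. Its log2 fold change was -1.86 ± 0.39 for allogeneic over syngeneic (adjusted p = 0.00274 by edgeR), 1.99 ± 0.42 for allogeneic over naive (adjusted p = 0.00186) and 3.85 ± 0.44 for syngeneic over naive T cells (adjusted p = 3.96e-05). The common Cox6b1 was at 165 ± 14.8 CPM in allogeneic, 101 ± 7.09 CPM in syngeneic and 85.7 ± 7.78 CPM in naive libraries, and was higher in allogeneic T cells than in both (adjusted p = 0.000835 by edgeR and 4.87e-05). Cox6b2 made up 0.521 ± 0.1105% of the counts of both genes in allogeneic, 3.17 ± 1.46% in syngeneic and 0.263 ± 0.0563% in naive libraries.

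Cox6a2, the heart and skeletal muscle isoform of subunit 6a (chr7:128205435-128206387 of GRCm38), was rarer still, with 11, 0 and 2 reads in allogeneic, 27, 63 and 76 reads in syngeneic and 4, 5 and 9 reads in naive libraries. It was called lower in allogeneic than in syngeneic T cells, at a log2 fold change of -3.73 ± 0.87 (adjusted p = 0.005 by edgeR), and higher in syngeneic than in naive T cells, at 3.30 ± 0.83 (adjusted p = 0.00776). With so few reads the first value depended on single libraries, from -5.89 to -2.98 when 1 was left out. Its exons share 70 bases with Itgad on the other strand. Cox6a2 and Cox6b2 were both lowest in syngeneic library 1 of their group, where the erythroid (2395 CPM), macrophage (67.1 CPM) and neutrophil (405 CPM) marker sums were lowest too, against 5401 to 6334, 235 to 246 and 1256 to 1359 CPM in the other syngeneic libraries. The part of these cells in the isoform differences was not tested.

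Cox7a1, the heart and muscle isoform of subunit 7a, had 65, 62 and 45 reads in allogeneic, 25, 15 and 19 reads in syngeneic and 32, 18 and 11 reads in naive libraries. Its level of 0.445 ± 0.101 CPM in allogeneic libraries exceeded 0.169 ± 0.0270 CPM in syngeneic and 0.162 ± 0.0678 CPM in naive libraries (SD, n = 3 each). The log2 fold change was 1.41 ± 0.39 over syngeneic (adjusted p = 0.0132 by edgeR, and 0.0508 without allogeneic library 1 or 0.0557 without syngeneic library 2) and 1.505 ± 0.39 over naive T cells (adjusted p = 0.00649). At this level Cox7a1 was 0.653 ± 0.0832% of the summed counts of Cox7a1 and Cox7a2 in allogeneic, 0.336 ± 0.0465% in syngeneic and 0.451 ± 0.205% in naive libraries.

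Cox7a2l, the supercomplex factor, was the nuclear member called lower against naive T cells in both transplant groups. Its level was 155, 141 and 135 CPM in allogeneic, 161, 130.1 and 134 CPM in syngeneic and 248, 241 and 304 CPM in naive libraries. Allogeneic and syngeneic libraries overlapped and both lay below every naive library. The log2 fold change was -0.82 ± 0.15 for allogeneic over naive (adjusted p = 0.000671 by edgeR), -0.86 ± 0.15 for syngeneic over naive (adjusted p = 0.00082) and 0.04 ± 0.15 for allogeneic over syngeneic T cells (adjusted p = 0.852). Its relative Cox7a2, the ubiquitous subunit 7a, went the other way and was called higher in all 3 comparisons, at 67.1 ± 6.70 CPM in allogeneic, 49.9 ± 1.71 CPM in syngeneic and 36.4 ± 2.61 CPM in naive libraries. The ratio of Cox7a2l to Cox7a2 counts within a library was 2.11, 2.35 and 2.00 in allogeneic, 3.20, 2.70 and 2.61 in syngeneic and 7.03, 6.96 and 7.72 in naive libraries. A pseudogene of Cox7a2l, Gm6969, matches 201 of its bases at 100% identity, so its reads may be split.

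**Figure D3:**
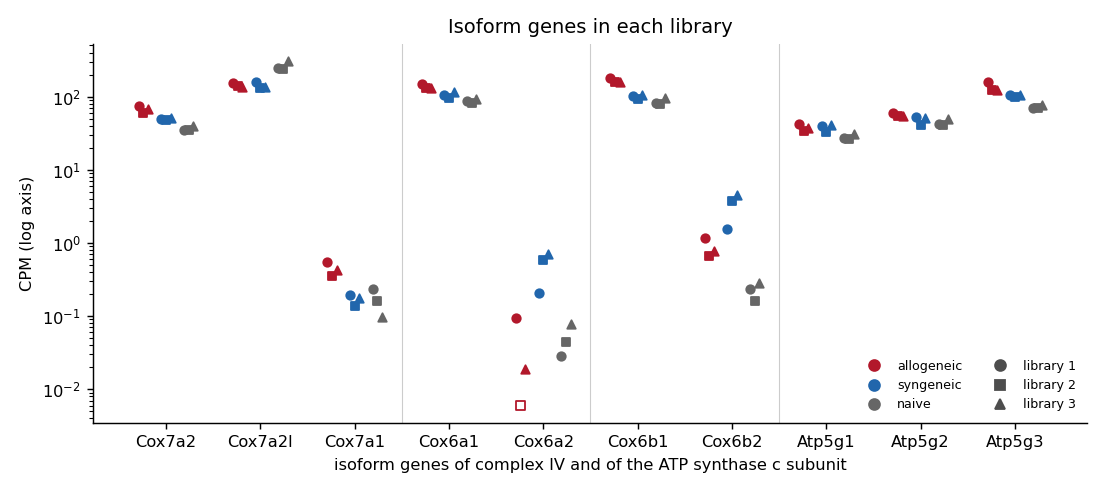
CPM on a log axis of isoform genes of complex IV and of the ATP synthase c subunit in each library, with the allogeneic libraries left, syngeneic centre and naive right for each gene; the open square marks a library with 0 reads. Cox7a2l is highest in naive libraries (241 to 304 CPM), Cox6a2 and Cox6b2 are highest in syngeneic libraries, and Cox7a1 and most common isoforms are highest in allogeneic libraries.

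Complex V, the ATP synthase, has 17 nuclear members, all tested. In allogeneic T cells 10 were higher than in syngeneic and 16 higher than in naive T cells, and 6 were higher in syngeneic than in naive T cells. None was lower by edgeR, DESeq2 or limma-voom, adjusted or not. Of the 5 subunits of the catalytic F1 head 3, 5 and 1 were higher in these comparisons, and of the 12 other members 7, 11 and 5. Over all genes 24.3, 31.8 and 22.4% were called higher, and 1 of 5 F1 subunits for syngeneic over naive T cells was near that share. The summed level of complex V genes was 2875 ± 229 CPM in allogeneic, 2316 ± 114 CPM in syngeneic and 1888 ± 114 CPM in naive libraries (SD, n = 3 each). Per kilobase of exon, Atp5a1, the F1 alpha subunit, was the highest gene of complex V, at 236 ± 15.96 CPM per kb in allogeneic, 181 ± 7.64 in syngeneic and 157 ± 6.37 CPM per kb in naive libraries. The length used joins all annotated exons of a gene, 3135 bases for Atp5a1 and 4237 for Atp5b, and the ranking depends on it. In CPM alone Atp5b was above Atp5a1, at means of 829, 745 and 553 CPM against 741, 569 and 491 CPM in the same groups.

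Atp5c1, the gamma shaft, had the largest difference of complex V between the transplant groups, with 194, 168 and 177 CPM in allogeneic, 129, 124 and 125 CPM in syngeneic and 105, 104 and 111 CPM in naive libraries. No groups overlapped, and the log2 fold change was 0.53 ± 0.11 over syngeneic (adjusted p = 0.00215 by edgeR) and 0.81 ± 0.11 over naive T cells (adjusted p = 6.37e-05). Atp5b, the catalytic beta subunit, was at 906, 759 and 822 CPM in allogeneic, 739, 709.8 and 787 CPM in syngeneic and 538, 533 and 588 CPM in naive libraries. The transplant groups overlapped, and Atp5b was called higher in both against naive T cells (adjusted p = 0.00082 by edgeR for allogeneic and 0.00911 for syngeneic) but not between them (adjusted p = 0.254). Atp5k, the small subunit e of the membrane part, had the largest difference against naive T cells, with 33.2, 26.8 and 30.1 CPM in allogeneic, 22.2, 19.8 and 23.4 CPM in syngeneic and 15.1, 13.9 and 17.5 CPM in naive libraries. Its fitted log2 fold change was 1.01 ± 0.15 for allogeneic over naive T cells (adjusted p = 0.000123 by edgeR).

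The smallest called differences of the complex were those of Atp5j2 over syngeneic (log2 0.37 ± 0.13, edgeR, adjusted p = 0.0396) and Atp5mpl over naive T cells (log2 0.35 ± 0.13, adjusted p = 0.0366). The call of Atp5j2 was lost without allogeneic library 1 or 3, syngeneic library 2 or 3 or naive library 1 (adjusted p of 0.0546 to 0.17), and that of Atp5mpl without allogeneic library 1 or 3, syngeneic library 2 or naive library 1 or 2 (adjusted p of 0.0513 to 0.145). Without allogeneic library 1 the log2 fold changes were 0.24 for Atp5j2 and 0.20 for Atp5mpl. Both calls were also lost with TMM computed without mitochondrial and ribosomal RNA locus counts (adjusted p = 0.051 and 0.0534) and with only the 2 groups compared (0.0583 and 0.0509). Atp5f1, subunit b of the stalk, had the smallest called difference between syngeneic and naive T cells (log2 0.32 ± 0.11, edgeR, adjusted p = 0.0415), lost without any 1 of the syngeneic libraries, naive library 1 or 2 or allogeneic library 3 (adjusted p of 0.0564 to 0.149), with DESeq2 (0.0509) and with no filter on low counts (0.0598). Atp5s, the associated factor, was at 1.15 ± 0.203 CPM in allogeneic, 1.32 ± 0.407 CPM in syngeneic and 0.875 ± 0.0483 CPM in naive libraries and was called in no comparison.

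The c subunit, which forms the rotating ring, is encoded by 3 genes that differ in the leader peptide. Atp5g3 was at 157, 124 and 124 CPM in allogeneic, 106.1, 98.7 and 106.2 CPM in syngeneic and 69.6, 70.4 and 77.8 CPM in naive libraries, without overlap between groups. It was higher in allogeneic than in naive T cells by a log2 fold change of 0.96 ± 0.14 (adjusted p = 0.000114 by edgeR) and in syngeneic than in naive T cells by 0.55 ± 0.14 (adjusted p = 0.00717). Over syngeneic T cells it was called (log2 0.41 ± 0.14, edgeR, adjusted p = 0.031), but without allogeneic library 1 the log2 fold change was 0.22 (adjusted p = 0.0916), and without syngeneic library 2 or 3 the adjusted p was 0.118 or 0.0767. With only the 2 groups compared it was 0.0545. Atp5g3 made up 59.0 ± 1.75% of the reads of the 3 genes in allogeneic, 54.8 ± 2.10% in syngeneic and 50.02 ± 0.968% in naive libraries. Atp5g2 made up 24.5 ± 1.46%, 25.3 ± 1.38% and 30.6 ± 0.846%, and Atp5g1 16.5 ± 0.714%, 19.9 ± 0.735% and 19.3 ± 0.181%, in the same groups (SD, n = 3 each). Pseudogenes match 411 bases of Atp5g1 at 99.8% identity and 645 bases of Atp5g2 at 100%, and none as alike was found for Atp5g3. Reads of Atp5g1 and Atp5g2 may be split, which would raise the Atp5g3 percentage. Atp5g1 and Atp5g2 were called higher in allogeneic than in naive T cells (adjusted p = 0.013 by edgeR and 0.0344), and both calls were lost without allogeneic library 1 or naive library 2, that of Atp5g2 also without allogeneic library 3 or naive library 1. Atp5g1 was also called higher in syngeneic than in naive T cells (adjusted p = 0.0212 by edgeR), which was lost without syngeneic library 1 or 3 or naive library 1 or 2.

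The mitochondrial genome encodes 13 of these subunits, 7 of complex I, 1 of complex III, 3 of complex IV and 2 of complex V, which are cut from long transcripts of both strands. Of 12 tested, 4 were lower in allogeneic than in syngeneic T cells and 7 lower than in naive T cells, and none was higher by edgeR, DESeq2 or limma-voom, adjusted or not. Over all genes 20.7 and 25.9% were called lower in these comparisons by edgeR. The count of 4 was nearer to its share than the count of 7. Between syngeneic and naive T cells edgeR called 0, with 2 lower at an unadjusted p under 0.05, limma-voom called 0 and DESeq2 called 1 lower. The 4 genes lower against syngeneic T cells, mt-Nd1, mt-Nd2, mt-Nd4 and mt-Nd5, all encode membrane subunits of complex I.

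mt-Nd2 (chrM:3914-4951 of GRCm38) had the largest difference among the called genes, with 85.4, 126 and 121 CPM in allogeneic, 169, 209.8 and 173 CPM in syngeneic and 203, 195 and 180.4 CPM in naive libraries. Every allogeneic library lay below the other 6. Its log2 fold change was -0.73 ± 0.11 over syngeneic (adjusted p = 0.000296 by edgeR) and -0.76 ± 0.11 over naive T cells (adjusted p = 0.000121).

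mt-Nd1 was at 353, 441 and 408 CPM in allogeneic, 516, 601 and 499 CPM in syngeneic and 551, 536 and 536 CPM in naive libraries, again with the allogeneic libraries lowest. Its log2 fold change was -0.42 ± 0.09 over syngeneic (adjusted p = 0.00382 by edgeR) and -0.38 ± 0.09 over naive T cells (adjusted p = 0.00408). mt-Nd4 was at 184, 269 and 284 CPM in allogeneic, 322, 350.3 and 308 CPM in syngeneic and 388, 391 and 365 CPM in naive libraries. No groups overlapped, and the log2 fold change was -0.41 ± 0.11 over syngeneic (adjusted p = 0.0121 by edgeR) and -0.59 ± 0.11 over naive T cells (adjusted p = 0.000846).

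mt-Nd5 was at 339, 519 and 528 CPM in allogeneic, 563, 719 and 568 CPM in syngeneic and 608, 619.9 and 539.5 CPM in naive libraries. Allogeneic library 1 was far below the others of its group. The log2 fold change of -0.41 ± 0.13 over syngeneic T cells was called (adjusted p = 0.0245 by edgeR), but was -0.27 without allogeneic library 1 (adjusted p = 0.0674) and -0.33 without syngeneic library 2 (adjusted p = 0.0937). With library sizes alone in place of TMM scaling the adjusted p was 0.0638, and with only the libraries of both groups 0.0506. Over naive T cells mt-Nd5 did not pass (log2 -0.31 ± 0.13, edgeR, adjusted p = 0.0615).

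mt-Cytb, the cytochrome b of complex III, and mt-Co1, the catalytic subunit of complex IV, were called lower by edgeR in allogeneic than in naive T cells. Over syngeneic T cells mt-Cytb did not pass with edgeR (log2 -0.33 ± 0.13, adjusted p = 0.0562) and passed with DESeq2 (adjusted p = 0.0486) or without syngeneic library 3 (edgeR, adjusted p = 0.0162), though not when any other library was left out, and mt-Co1 did not pass with edgeR (adjusted p = 0.206). mt-Cytb was at 473, 639 and 651 CPM in allogeneic, 692, 907 and 629.8 CPM in syngeneic and 829, 831 and 789.6 CPM in naive libraries, with a log2 fold change of -0.43 ± 0.13 over naive T cells (adjusted p = 0.0138 by edgeR, and 0.0509 without allogeneic library 1). mt-Co1 was at 1205, 1461 and 1622 CPM in allogeneic, 1563, 1850.1 and 1473 CPM in syngeneic and 1917, 1897 and 1927 CPM in naive libraries, with a log2 fold change of -0.38 ± 0.11 over naive T cells (adjusted p = 0.0128 by edgeR). Allogeneic and syngeneic libraries overlapped for both genes. Over the 9 libraries mt-Co1 was followed most closely by mt-Cytb, mt-Nd4 and mt-Nd6 in log2 CPM, with Pearson r of 0.956, 0.940 and 0.902, given as a description.

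mt-Nd6 is encoded on the opposite mitochondrial strand from the other 12. It was at 25.3 ± 6.98 CPM in allogeneic, 29.2 ± 5.24 CPM in syngeneic and 33.8 ± 0.733 CPM in naive libraries (SD, n = 3 each). It was called lower in allogeneic than in naive T cells at a log2 fold change of -0.38 ± 0.15 (adjusted p = 0.0445 by edgeR), which was no longer called without allogeneic library 1 or 2, syngeneic library 3, or any naive library (adjusted p of 0.137, 0.0737, 0.0604, and 0.102, 0.0862 and 0.0884), or with library sizes alone (0.079). The log2 fold change was -0.22 without allogeneic library 1 and -0.59 without allogeneic library 3. mt-Atp6 was at 8.39 ± 0.205 CPM in allogeneic, 8.56 ± 1.10 CPM in syngeneic and 12.0 ± 1.90 CPM in naive libraries, and was called lower in allogeneic than in naive T cells (log2 -0.46 ± 0.17, edgeR, adjusted p = 0.0351). That call was lost without allogeneic library 2 or 3 or naive library 1 or 3 (adjusted p = 0.0879, 0.0613, 0.0852 and 0.152). mt-Atp8 was at 21.0 ± 0.759 CPM in allogeneic, 21.3 ± 2.44 CPM in syngeneic and 28.6 ± 5.19 CPM in naive libraries, and did not pass with edgeR in any comparison. It was near the threshold against naive T cells, with adjusted p of 0.0518 for allogeneic and 0.0729 for syngeneic T cells by edgeR, and passed with library sizes alone (0.0142 and 0.0239) or without naive library 2 (0.0132 and 0.0192).

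**Figure D4:**
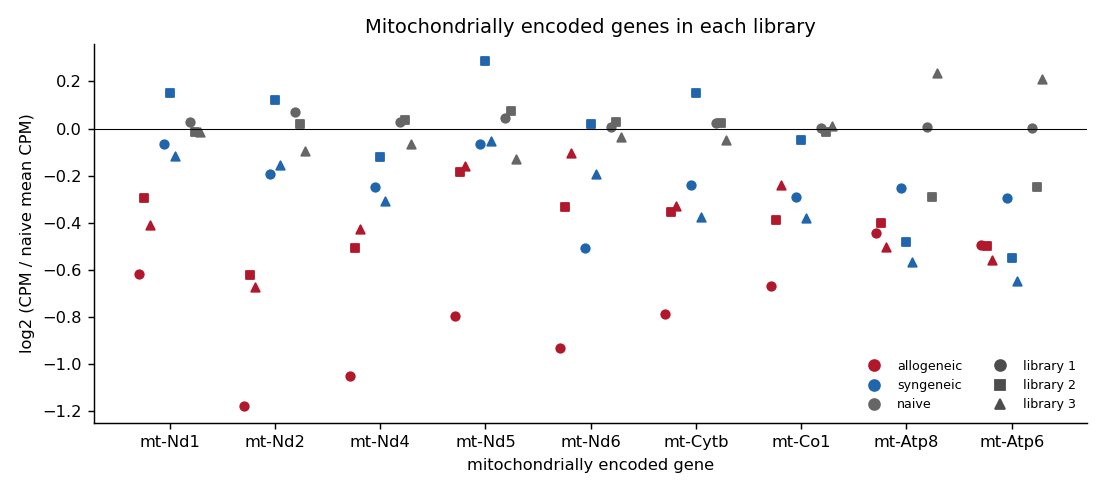
Log2 of the CPM of a library over the mean CPM of the naive libraries for the 9 mitochondrial genes with more than a few reads, with allogeneic libraries left, syngeneic centre and naive right for each gene. Allogeneic library 1 (circles) is the lowest of its group for 7 of the 9 genes, all but mt-Atp8 and mt-Atp6, and for mt-Nd1, mt-Nd2, mt-Nd4 and mt-Nd5 the allogeneic libraries lie below all syngeneic libraries.

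The remaining mitochondrial genes were nearly absent from the table, so no direction was read from any of them alone. Of these, mt-Nd4l, mt-Co2 and mt-Co3 were among the 12 tested mitochondrial genes and were called in no comparison. They also entered the mean log2 CPM that weights genes equally. Only mt-Nd3 was not tested. Across the 9 libraries mt-Nd3 had 0 to 5 reads, mt-Nd4l 3 to 18, mt-Co2 12 to 32 and mt-Co3 3 to 18, beside 142081 to 265186 reads for mt-Co1. Per kilobase their median levels were 0.0251, 0.324, 0.295 and 0.0783 CPM, against 1050.0 CPM per kb for mt-Co1 and 605 CPM per kb for mt-Cytb. These 4 genes have annotated nuclear copies with almost the same sequence. Between 98.99 and 99.9% of their length lies in a copy of at least 99% identity, and the same holds for 99.6% of mt-Atp6, which had 832 to 1665 reads, 63.6% of mt-Nd4 and 31.3% of mt-Co1. All 7 copies are pseudogenes within 4663 bases of chromosome 1 (24611535 to 24616197 of GRCm38), and each held at most 12 reads in a library. mt-Nd1, mt-Nd2, mt-Nd5, mt-Nd6, mt-Cytb and mt-Atp8 had no such annotated copy. No source used here gives the treatment of reads with several alignments, and whether this sets these low counts was not tested.

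The sequences of mt-Nd3 and its copy Gm28438 show how alike they are, set beside the less alike pair of mt-Nd2 and Gm13339. Each is 60 bases of the transcript, 5′ to 3′, from GENCODE M21 (GRCm38), with differing bases in capitals. The mt-Nd3 window is chrM:9459-9518 on the plus strand and that of Gm28438 chr1:24613060-24613119 on the minus strand. In 345 aligned bases these differ by 1 substitution, T3C (position from the first base of the mitochondrial gene, whose base comes first), and Gm28438 had 4 to 11 reads in a library.
mt-Nd3: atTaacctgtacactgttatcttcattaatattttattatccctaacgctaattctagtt
Gm28438: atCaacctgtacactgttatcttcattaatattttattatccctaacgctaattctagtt
The mt-Nd2 window is chrM:4580-4639 on the plus strand and that of Gm13339 chr2:22590336-22590395 on the minus strand. They differ at 17 of 510 aligned bases (96.7% identity), 4 of them in this window (A668G, C681T, T711C and T726C). mt-Nd2 had 10072 to 28044 reads in a library and Gm13339 none.
mt-Nd2: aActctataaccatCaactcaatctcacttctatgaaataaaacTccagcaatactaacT
Gm13339: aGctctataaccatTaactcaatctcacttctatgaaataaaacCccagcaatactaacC

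**Figure D5:**
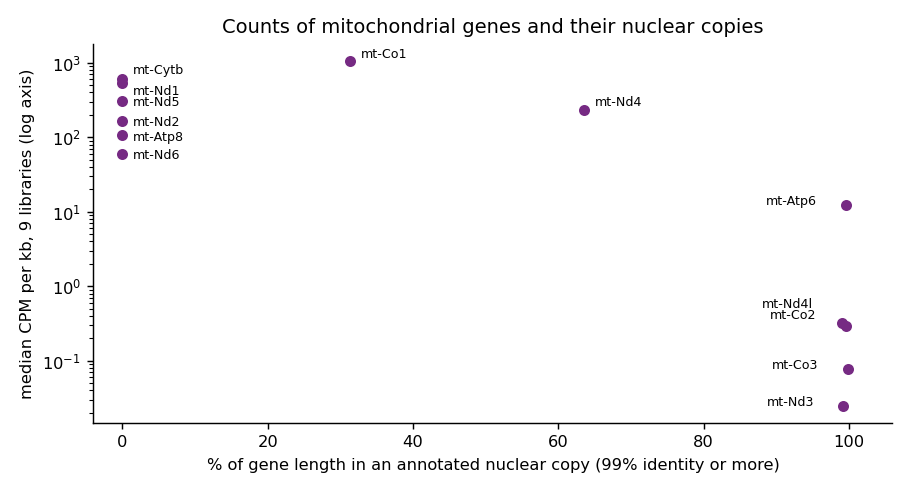
Median CPM per kilobase over the 9 libraries (vertical log axis) of each of the 13 mitochondrial genes against the percentage of its length that lies in an annotated nuclear copy of at least 99% identity (horizontal axis). The 4 genes under 1 CPM per kb are covered to 98.99% or more, mt-Atp6 is covered to 99.6% at 12.5 CPM per kb, and the 8 other genes are above 60 CPM per kb.

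Promoters of nuclear respiratory chain genes are known for sites of NRF1, of the ETS-family factor NRF2 (GABP) and of YY1. In the RefSeq table of promoters (GRCm38.p6), 66 of the 83 nuclear members had 300 bases, from 250 before to 50 after the transcription start. The NRF1 motif, GCGCA, any base and GCGC, occurred on either strand in 17 of these (25.8%), against 5.19% of all 27025 promoters in the table. The ETS motif CCGGAAG occurred in 16 (24.2%, against 9.93%) and the YY1 motif AAGATGGCG in 7 (10.6%, against 1.64%). At least 1 motif was present in 34 members, of which 26 were higher in allogeneic than in naive T cells, and none in 32, of which 27 were higher. The motifs may overlap each other, and a match is a description of the letters and not of binding.

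The 150 bases before the RefSeq start are shown for genes that were called higher with a motif (Sdhd, Atp5k, Cox6b1), for Cox5a, which had the largest log2 fold change over naive T cells among the ubiquitous subunits, and for Cox7a2l, which was lower. Capitals mark an NRF1 or ETS match on either strand, and the last base precedes the start. The windows are chr9:50603850-50603999 (minus strand) for Sdhd, chr5:108434400-108434549 (minus) for Atp5k, chr7:30626115-30626264 (minus) for Cox6b1, chr9:57521082-57521231 (plus) for Cox5a and chr17:83514334-83514483 (minus) for Cox7a2l.
Sdhd: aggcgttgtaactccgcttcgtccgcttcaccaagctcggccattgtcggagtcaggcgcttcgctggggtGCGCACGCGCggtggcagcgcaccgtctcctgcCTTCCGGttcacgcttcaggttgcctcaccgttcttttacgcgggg
Atp5k: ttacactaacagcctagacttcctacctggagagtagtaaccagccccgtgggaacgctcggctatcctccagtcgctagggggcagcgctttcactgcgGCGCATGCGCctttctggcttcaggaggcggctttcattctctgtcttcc
Cox6b1: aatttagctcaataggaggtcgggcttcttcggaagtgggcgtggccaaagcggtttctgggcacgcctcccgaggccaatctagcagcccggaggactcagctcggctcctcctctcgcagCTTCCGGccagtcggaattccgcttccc
Cox5a: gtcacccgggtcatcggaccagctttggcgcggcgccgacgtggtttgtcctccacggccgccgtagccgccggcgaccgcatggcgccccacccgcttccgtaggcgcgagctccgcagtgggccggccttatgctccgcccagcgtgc
Cox7a2l: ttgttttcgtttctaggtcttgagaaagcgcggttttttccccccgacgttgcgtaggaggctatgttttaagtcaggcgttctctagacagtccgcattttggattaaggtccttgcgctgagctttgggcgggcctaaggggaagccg
Sdhd had both motifs in this stretch, Atp5k the NRF1 motif and Cox6b1 the ETS motif, and Cox5a and Cox7a2l had neither.

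Genes that build and serve the chain were counted by the same test. Of 46 assembly factors tested, 16 were higher and 3 lower in allogeneic than in syngeneic T cells, 14 higher and 4 lower than in naive T cells, and 4 higher and 8 lower in syngeneic than in naive T cells. Over all genes 24.3, 31.8 and 22.4% were called higher and 20.7, 25.9 and 19.5% lower in these comparisons, so the counts of 14 higher in allogeneic and 8 lower in syngeneic than in naive T cells were near that background. Those of complex IV included large differences: Cox17, a copper chaperone, was at 28.9 CPM in allogeneic, 13.7 CPM in syngeneic and 16.3 CPM in naive libraries on average, and Surf1, a heme insertion factor, at 50.1, 26.4 and 30.8 CPM. Both were higher in allogeneic T cells than in both others, with log2 fold changes over syngeneic T cells of 1.09 and 0.93. Lyrm7, which loads the Rieske protein into complex III, went the other way, at 1.49 CPM in allogeneic, 3.69 CPM in syngeneic and 5.07 CPM in naive libraries, and was called lower in allogeneic T cells against both.

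Of 14 carriers of electrons and metabolites tested, 8 were higher and 1 lower in allogeneic than in syngeneic T cells, 11 higher and 2 lower than in naive T cells, and 7 higher and 1 lower in syngeneic than in naive T cells, beside 24.3, 31.8 and 22.4% of all genes called higher. Slc25a5, an ADP/ATP exchanger, averaged 245 CPM in allogeneic, 185 CPM in syngeneic and 126 CPM in naive libraries, and Cycs, cytochrome c, 37.3, 32.9 and 20.9 CPM. Slc25a5 was called higher in all 3 comparisons, and Cycs was called higher in both transplant groups against naive T cells.

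For the machinery of mitochondrial DNA and RNA the counts of lower genes in allogeneic T cells were near the shares over all genes, and those of higher genes were below them. Of 29 genes tested, 1 was higher and 8 lower in allogeneic than in syngeneic T cells, 4 higher and 9 lower than in naive T cells, and 5 higher and 3 lower in syngeneic than in naive T cells. Over all genes 20.7, 25.9 and 19.5% were called lower and 24.3, 31.8 and 22.4% higher in these comparisons. Polg, the catalytic subunit of the mitochondrial DNA polymerase, averaged 77.4 CPM in allogeneic, 105.7 CPM in syngeneic and 125 CPM in naive libraries, and was called lower in allogeneic T cells against both. Lrpprc, which stabilises mitochondrial messenger RNA, averaged 63.2 CPM, 92.6 CPM and 76.4 CPM in the same groups, and was also called lower against both. Tfam, which packages and transcribes mitochondrial DNA, averaged 48.7 CPM, 42.8 CPM and 47.6 CPM and was called in no comparison.

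Of 13 regulators of mitochondrial content, 5 were higher and 5 lower in allogeneic than in syngeneic T cells, 5 and 5 than in naive T cells, and 2 and 2 in syngeneic than in naive T cells; the shares over all genes are those given for the assembly factors. The coactivator Ppargc1b averaged 8.71 CPM in allogeneic, 22.1 CPM in syngeneic and 25.9 CPM in naive libraries, and its relative Pprc1 averaged 77.9, 150.4 and 139.8 CPM. Both were called lower in allogeneic T cells against both other groups. Gabpa, the DNA-binding part of NRF2, averaged 87.1 CPM in allogeneic, 66.0 CPM in syngeneic and 62.1 CPM in naive libraries and was called higher in allogeneic T cells against both, while Nrf1 averaged 81.6, 80.5 and 76.0 CPM and was called in no comparison. Hif1a, the oxygen-regulated factor, averaged 281 CPM in allogeneic, 105.5 CPM in syngeneic and 112 CPM in naive libraries and was called higher in allogeneic T cells against both, at a log2 fold change of 1.42 over syngeneic and 1.37 over naive T cells.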

How the data were processed

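RNA of 9 libraries of sorted splenic T cells was compared, 3 for each of 3 groups, grouped by the transplant type in the labels. Libraries were stranded and depleted of ribosomal RNA, per the labels' protocols. Values are raw counts for 29229 Ensembl genes, as deposited in 1 table. Per the submitters' processing notes, HTSeq 0.6.1, TopHat2 2.0.13, Bowtie2 2.2.1 and FastQC 0.11.3 were used with GRCm38. Not given in the sources used here are how reads with several alignments were treated, the strand option of the counting and the release of the annotation. Without that option, reads of genes on opposite strands cannot be told apart, and 30 members share exon bases with such a gene. Pseudogenes of at least 99% identity over at least 100 bases, found with blastn 2.17.0 among GENCODE M21 transcripts, exist for 10 nuclear and 7 mitochondrial members, whose reads may be split.

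Symbols came from GENCODE M21, which matched 29014 genes; the other 215 stayed in totals and tests. Of 99 annotated members 96 were in the table, and Cox7b2, Cox8c and another identifier of Atp5o were not analysed here. CPM used column totals. Genes passing filterByExpr (19609) were scaled by TMM and all 9 libraries were fitted together with group as the only term (quasi-likelihood F-test, edgeR 4.0.16), with Benjamini-Hochberg adjustment over all genes and a call at 0.05. A SE is the log2 fold change divided by the square root of F. The test was tested on simulated counts. Depth limits precision most for Cox4i2, Cox8b, Ndufa4l2 and mt-Nd3, which did not pass the filter. Replicates within a group differed by more than sampling noise (chi-square per degree of freedom of 22.5 to 362). The transplant libraries were pools of different recipients and p-values measure the spread between libraries.

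Members and lists were chosen with earlier results of these data known. Named were all mitochondrial and complex II genes, genes with isoforms, and per comparison and complex the called nuclear genes of highest and lowest log2 fold change and those of opposite sign; genes outside this rule were added to describe a role and were chosen after their values were seen. Alternatives were other scalings, DESeq2 1.42.0, limma-voom (limma 3.58.1), no filter, only 2 groups, a replicate block and each library left out in turn.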

Additional observations from a re-analysis of the deposited data

How the results depend on the processing

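No called gene among those taken by the naming rule changed sign under any alternative run. Against naive T cells, 65 nuclear members were higher in allogeneic T cells and 56 to 68 when a library was left out; against syngeneic T cells 49 were higher, with 26 to 52. For syngeneic over naive T cells the 26 higher calls ranged from 13 to 38. The lowest, 13 without naive library 2, was below the share over all genes, 4033 of 20159 tested. The 1 lower call became 2 with library sizes alone and ranged from 1 to 2. The 0 mitochondrial lower calls became 2 with library sizes alone, 1 with only 2 groups and 1 with DESeq2, and ranged from 0 to 2. The mitochondrial share differed by -0.081 percentage points between allogeneic and syngeneic and by -0.122 between allogeneic and naive libraries, against -0.148 and -0.178 outside the ribosomal RNA locus and -0.158 and -0.197 of protein-coding counts. When a library was left out, the difference in the share of all counts ranged from -0.1001 to -0.0504 between allogeneic and syngeneic, from -0.141 to -0.0917 between allogeneic and naive and from -0.0714 to -0.0218 between syngeneic and naive libraries. The cause was not tested for changes from scaling or left-out libraries.

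Deviations of same-numbered libraries from their group means correlated at r of -0.12 to 0.26. Libraries of different numbers were not compared in this way, so these values cannot decide whether replicate numbers mark a shared batch. With the replicate block, 53, 66 and 29 nuclear members were higher and 2, 1 and 1 lower for allogeneic over syngeneic, allogeneic over naive and syngeneic over naive T cells, and 4, 7 and 0 mitochondrial members were lower.

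Log2 fold changes of some uncalled genes changed sign when a library was left out. For allogeneic over syngeneic T cells they ranged from -0.11 to 0.15 for mt-Atp6, -0.092 to 0.14 for mt-Atp8, -0.044 to 0.080 for Sdha, -0.082 to 0.19 for Cox7a2l and -0.13 to 0.12 for Atp5g1, and for allogeneic over naive from -2.59 to 0.32 for Cox6a2. For syngeneic over naive T cells they ranged from -0.036 to 0.10 for mt-Nd1, -0.12 to 0.027 for mt-Nd2, -0.0045 to 0.17 for mt-Nd5, -0.25 to 0.021 for mt-Cytb, -0.11 to 0.022 for Sdhc, -0.11 to 0.059 for Cox4i1 and -0.16 to 0.46 for Cox7a1. Sdha was at -0.0019 and Atp5g1 at -0.0023 with TMM without mitochondrial and ribosomal RNA locus counts, and with library sizes alone Atp5g1 was at -0.0050 and mt-Nd1 at -0.0057.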
